A study of Homo sapiens with 22 samples.

Results

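Box H/ACA and Cajal body RNAs were examined in RNA sequencing of HT1080 cells, an established human fibrosarcoma line. The members were all genes whose symbol was SNORA or SCARNA followed by a number and at most 1 letter, which gave 144 symbols (121 SNORA and 23 SCARNA) under 480 of the 60675 identifiers in the count table. Identifiers that share a symbol were summed, which applied to 69 symbols, with up to 30 identifiers under 1 of them. The 22 libraries fell into 6 groups: WT cells, the lines KDAC6H216A, KDAC6H611A and KDAC8H143A with 4 libraries each, and WT cells given 1 µM Tubastatin A or 5 µM PCI-34051 for 2 days with 3 libraries each. In the mutant lines a CRISPR edit replaced a catalytic histidine with alanine, in the first (H216A) or second (H611A) catalytic domain of the lysine deacetylase KDAC6 or in KDAC8. KDAC6H216A was a pool of 3 independently edited lines, and the methods name no pool for the other mutants. The KDAC8H143A line also carries an unintended insertion of 1 base in an intron. Tubastatin A is known as a KDAC6 inhibitor and PCI-34051 as a KDAC8 inhibitor. WT cells were the untreated parent line, the label of no WT library names a vehicle, and the methods call the libraries of a group biological replicates without saying how the cultures were kept apart.

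Box H/ACA RNAs fold into hairpins followed by a box H hinge and a box ACA near the 3′ end, and they bind the proteins dyskerin (DKC1), NHP2, NOP10 and GAR1. Most guide the conversion of uridine to pseudouridine in ribosomal RNA (SNORA genes, nucleolus) or in spliceosomal RNA (SCARNA genes, Cajal bodies). In human cells nearly all are cut from introns of host genes. The SCARNA name marks the Cajal body and not the box. SCARNA13 and SCARNA15 are H/ACA RNAs, SCARNA5, SCARNA6, SCARNA10 and SCARNA12 join a box C/D and a box H/ACA part, and SCARNA2, SCARNA7 and SCARNA9 are box C/D RNAs that guide 2′-O-methylation. SNORA73A and SNORA73B are the 2 human copies of the U17 (E1) RNA, which acts in the cleavage of precursor ribosomal RNA and not as a pseudouridine guide.

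The U17 copies are shown because the largest differences below concern them. They lie on the plus strand of chromosome 1 (GRCh38) in the introns of RCC1, SNORA73A at chr1:28507366-28507571 with 206 bases and SNORA73B at chr1:28508559-28508762 with 204 bases, both also within the span of the noncoding gene SNHG3. Capitals mark the bases that differ from, or are absent in, the other copy.
SNORA73A: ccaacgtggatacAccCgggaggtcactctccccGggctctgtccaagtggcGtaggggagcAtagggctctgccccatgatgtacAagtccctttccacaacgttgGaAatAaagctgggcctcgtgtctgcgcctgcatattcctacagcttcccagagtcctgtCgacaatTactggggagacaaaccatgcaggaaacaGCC
SNORA73B: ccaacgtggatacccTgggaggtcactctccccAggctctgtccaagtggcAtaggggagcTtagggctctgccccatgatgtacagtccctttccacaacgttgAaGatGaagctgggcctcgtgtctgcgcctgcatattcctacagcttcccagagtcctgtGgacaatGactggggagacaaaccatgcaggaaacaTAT
The copies were identical at 192 of 206 aligned positions (93.2%), with at most 54 identical bases in a row. Reads that fall within such a stretch are divided between the copies by the counting program, so the split between them is less certain than their sum.

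SCARNA5 and SCARNA6 are shown because they share the host gene ATG16L1 (chromosome 2, plus strand) and differed in response. SCARNA5 lies at chr2:233275727-233276002 and SCARNA6 at chr2:233288676-233288940. Capitals mark the last CTGA, the letters of box D.
SCARNA5: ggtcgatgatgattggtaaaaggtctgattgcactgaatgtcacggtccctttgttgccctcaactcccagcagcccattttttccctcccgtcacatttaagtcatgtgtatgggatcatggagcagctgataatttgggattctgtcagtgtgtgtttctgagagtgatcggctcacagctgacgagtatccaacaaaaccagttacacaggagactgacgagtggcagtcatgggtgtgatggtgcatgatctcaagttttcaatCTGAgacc
SCARNA6: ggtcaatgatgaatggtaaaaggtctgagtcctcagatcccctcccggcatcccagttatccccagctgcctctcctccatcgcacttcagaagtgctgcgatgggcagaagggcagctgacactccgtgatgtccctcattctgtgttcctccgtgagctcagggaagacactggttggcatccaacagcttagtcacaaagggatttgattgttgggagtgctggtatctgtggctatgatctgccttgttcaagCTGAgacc
The pair was identical at 62.5% of 280 aligned positions, with at most 15 identical bases in a row.

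SNORA23 and SCARNA13 show the box ACA end (in capitals, ACA with 3 bases after it), on chr11:9428773-9428954 (plus strand, in an intron of IPO7) and chr14:95533355-95533629 (minus strand, within exons of 2 transcripts of SNHG10). SCARNA12, a composite RNA at chr12:6967337-6967606 (minus strand, PHB2), is shown with its last CTGA in capitals.
SNORA23: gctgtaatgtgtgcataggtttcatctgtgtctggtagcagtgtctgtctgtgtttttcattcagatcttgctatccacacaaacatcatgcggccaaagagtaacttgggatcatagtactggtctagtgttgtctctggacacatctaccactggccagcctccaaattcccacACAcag
SCARNA13: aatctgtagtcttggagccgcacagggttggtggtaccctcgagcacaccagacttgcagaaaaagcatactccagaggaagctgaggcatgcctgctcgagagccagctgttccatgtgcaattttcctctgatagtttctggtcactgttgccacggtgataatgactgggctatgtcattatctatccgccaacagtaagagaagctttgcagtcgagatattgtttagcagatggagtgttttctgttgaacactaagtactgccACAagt
SCARNA12: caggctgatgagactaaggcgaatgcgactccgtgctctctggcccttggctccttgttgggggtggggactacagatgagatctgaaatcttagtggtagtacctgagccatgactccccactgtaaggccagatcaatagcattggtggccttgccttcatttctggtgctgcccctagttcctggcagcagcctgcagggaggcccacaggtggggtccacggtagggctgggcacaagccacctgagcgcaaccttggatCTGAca
The letters ACA with exactly 3 bases after them, read on the transcript strand, ended 62.0% of 418 annotated SNORA identifiers and 48.2% of 56 SCARNA identifiers, against 2.83% of 247 box C/D (SNORD) identifiers and 1.37% of 9372 other genes under 300 bases. CTGA within the last 12 bases was found in 14 of 56 SCARNA and 14 of 418 SNORA identifiers. SCARNA2, SCARNA5, SCARNA6, SCARNA7, SCARNA9, SCARNA10 and SCARNA12 all held it.

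Most of the 144 RNAs were not seen in these libraries, and those that were seen were the longer ones. The table holds expected counts, the numbers of read pairs that RSEM assigned to each gene, and 112 symbols were at 0 in all 22 libraries. Another 18 had a count but too few for a test, and 14 of those never exceeded 3 counts in a library. The remaining 14 symbols (9 SCARNA and 5 SNORA) passed the filter on low counts in at least 1 comparison, and 11 did so in all 6. The annotated identifiers had a median length of 132 bases. Of the 418 identifiers under 150 bases, 9 (2.15%) had any count, with 16 counts in all libraries together. Of the 35 of 150 bases or more but under 200, 9 (25.7%) had a count. Of the 21 of 200 bases or longer, 18 (85.7%) had one, and they held 99.5% of the members' counts. The box C/D RNAs split the same way, with 3 of 240 identifiers under 150 bases and 4 of 6 of 200 bases or longer counted. A count of 0 here does not show that a short RNA was absent from the cells. Whether loss of short fragments in library preparation or their handling by the counting program gave these zeros was not tested.

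**Figure D1:**
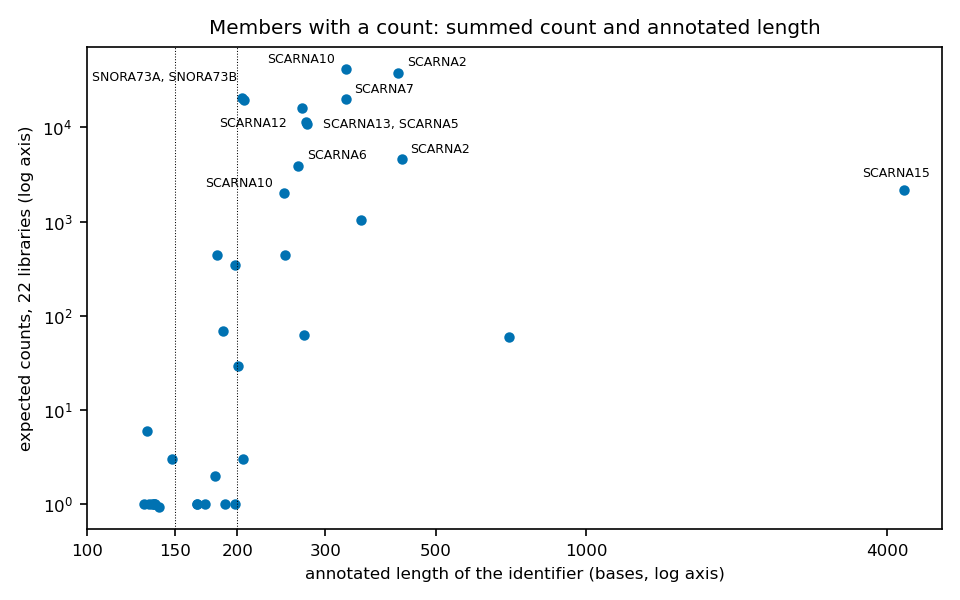
Each point is 1 identifier of an H/ACA or Cajal body RNA with a count, by annotated length (bases, log axis) and its expected counts summed over 22 libraries (log axis); dotted lines mark 150 and 200 bases. No identifier under 150 bases exceeded 10 counts, and the 18 counted identifiers of 200 bases or longer held 99.5% of the members' counts.

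Total counts ran from 5248953 to 8998474 in WT libraries, from 6837390 to 17170473 in mutant libraries and from 24315766 to 29862665 in treated ones. Mitochondrial rRNA held 20.8 to 23.9% of the counts in WT and at most 0.0259% in KDAC8H143A and treated libraries, and it was also low in KDAC6H216A replicate 1 (0.195%) and KDAC6H611A replicate 4 (0.173%), which stood apart from their groups. Of 8 mesenchymal markers, VIM was at 1929 CPM (counts per 1e6 counts) or more in every library and SPARC and FN1 at 168 or more, while PDGFRB, COL1A1, COL1A2 and THY1 were at 22.8 or less and FAP at 0.129 or less. FN1 moved between groups, with a mean of 685 CPM in WT, 263 in KDAC8H143A, 2560 under Tubastatin A and 3298 under PCI-34051, and COL1A2 was at 2.19 CPM in WT and at most 0.127 in the mutant means. The part of these differences in the results was not tested. By contrast the epithelial genes EPCAM, CDH1 and KRT19 and the blood genes PTPRC, CD3E and CD14 stayed under 1 CPM, although KRT8 and KRT18 were present at 88.2 CPM or more. The mutations change single codons, so gene counts do not check those labels; HDAC6, the KDAC6 gene, was at 12.8 ± 2.83 CPM of total counts in WT, 6.11 ± 1.08 in KDAC6H216A and 12.4 ± 4.48 in KDAC6H611A (SD, n = 4 each).

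The members together held a small share of each library, and it was lower in the treated cells. In WT cells the summed share was 0.0751% ± 0.00839 of all counts (SD, n = 4), with library values of 0.0781, 0.0777, 0.0629 and 0.0819%. It was 0.0909% ± 0.0366 in KDAC6H216A (n = 4), where replicate 1 had 0.145%, and 0.0899% ± 0.00687 in KDAC6H611A (n = 4). KDAC8H143A had 0.0668% ± 0.0117 (n = 4), a mean within 1 SD of WT, but with mitochondrial rRNA left out of the totals WT was at 0.0964% ± 0.0114 and KDAC8H143A at 0.0668% ± 0.0117 without overlap. Cells given Tubastatin A had 0.0418% ± 0.00513 and those given PCI-34051 0.0400% ± 0.00314 (n = 3 each), below every WT library. The SNORA and SCARNA parts moved differently: the SNORA share was 0.0279% ± 0.00421 in WT, 0.00540% ± 0.00107 in the KDAC8 mutant, 0.00309% ± 0.00122 under Tubastatin A and 0.00217% ± 0.000639 under PCI-34051, while the SCARNA share was 0.0472% ± 0.00448 in WT, 0.0614% ± 0.0108 in the KDAC8 mutant, 0.0387% ± 0.00397 under Tubastatin A and 0.0378% ± 0.00252 under PCI-34051. With mitochondrial rRNA left out of the totals, a denominator chosen after seeing the data, the SCARNA share was 0.0605% ± 0.00594 in WT and 0.0614% ± 0.0108 in KDAC8H143A. SNORA genes thus gave 34.6 to 39.6% of the members' counts in WT libraries and 4.36 to 9.47% in KDAC8H143A and treated ones. Most SNORA counts were of the U17 copies. Over all libraries SNORA73A had 19513 counts and SNORA73B 20400, against at most 445 for any other SNORA symbol. The SNORA share therefore follows these copies and not the SNORA genes as a class. In KDAC8H143A the other tested SNORA genes differed from WT by 1.42 (SNORA23), 0.55 (SNORA74A) and -0.61 (SNORA53) on the log2 scale. None of these was called changed by the test described below. For the library with the lowest summed share (0.0375%) the 95% Wilson interval was 0.0368 to 0.0382%, which covers counting error only.

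Per length, the U17 copies led in WT cells. SNORA73A was at 725 and SNORA73B at 690 CPM per kb of annotated length, followed by SCARNA10 (330), SCARNA7 (304), SCARNA12 (301), SCARNA2 (282), SCARNA13 (121), SCARNA5 (98.6) and SCARNA6 (65.2). SNORA74A, SCARNA9, SNORA23 and SNORA53 were between 4.23 and 7.71 CPM per kb. SCARNA15 had 9.22 CPM, but its counts belonged to an identifier annotated as a noncoding RNA of 4325 bases that carries this symbol, so its values are not those of the small RNA. SCARNA2 and SCARNA10 each had 2 nested identifiers whose reads cannot be fully told apart and were summed. The leading one held 89.3% and 95.4% of the counts.

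All CPM values were set on 1 scale over the 22 libraries, whereas each comparison was scaled on its own 2 groups. The log2 fold changes of the treated cells are therefore lower than the CPM ratios by a median of 0.28 (Tubastatin A) and 0.25 (PCI-34051) on the log2 scale, and overlap between groups is judged on the CPM scale. With library totals alone as the scale, the median of all genes moved to 0.36 in the KDAC8 mutant, 0.35 under Tubastatin A and 0.38 under PCI-34051, and the share of calls that were higher rose from 50.6% to 81.1% with Tubastatin A, from 49.9% to 84.3% with PCI-34051 and from 54.1% to 72.2% in KDAC8H143A, so small differences below depend on the scale. A gene was called changed at an adjusted p below 0.01 in edgeR's quasi-likelihood test over all genes tested, and differences between groups are log2 fold changes ± SE.

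SNORA73A, the first U17 copy, was lower in KDAC8H143A and in both treated groups. It was at 154, 162, 115 and 166 CPM in the WT libraries (802 to 1340 counts). In KDAC8H143A it was at 14.7, 15.95, 13.7 and 10.6 CPM, which is 11.1-fold lower (log2 difference -3.47, SE 0.16, adjusted p = 5.545e-08). With Tubastatin A it was at 15.8, 7.13 and 7.69 CPM (-4.15 ± 0.18, adjusted p = 2.788e-13). PCI-34051 gave 6.66, 5.58 and 8.69 CPM, a difference of -4.67 ± 0.15 (adjusted p = 5.157e-14) or 25.5-fold. Every library of these 3 groups was below every WT library. In KDAC6H216A the values were 215.9, 190, 135 and 171 CPM, and in KDAC6H611A 175, 193, 215.5 and 122 CPM, in the WT range or above it, with differences of 0.13 ± 0.19 and 0.25 ± 0.18 that were not called.

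SNORA73B, the second copy, fell in the same groups, with smaller estimates. WT libraries had 154, 147, 114 and 148 CPM and KDAC8H143A 29.3, 29.3, 27.5 and 22.5 CPM (-2.41 ± 0.14, adjusted p = 2.296e-07). Tubastatin A gave 25.8, 13.9 and 12.9 CPM, a difference of -3.28 ± 0.16 (adjusted p = 2.016e-12). The PCI-34051 libraries had 10.6, 7.49 and 15.4 CPM, a difference of -3.91 ± 0.17 (adjusted p = 3.918e-12). Again no library overlapped WT. Whether the copies differ in the size of their fall was not tested. These 10 libraries also had a low mitochondrial rRNA share. Of the other 2 libraries with a low share, KDAC6H216A replicate 1 had the highest values of its group (215.9 CPM of SNORA73A and 205.5 of SNORA73B) and KDAC6H611A replicate 4 the lowest of its group (122 and 108 CPM), with SNORA73B below every WT library. The part of that share in the U17 levels was not tested. Both calls held under each alternative tried, with log2 fold changes for SNORA73A from -4.01 to -3.18 in KDAC8H143A, from -4.61 to -3.25 for Tubastatin A and from -4.87 to -3.50 for PCI-34051. As everywhere in bulk RNA, less RNA per cell and fewer cells that hold it cannot be told apart.

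**Figure D2:**
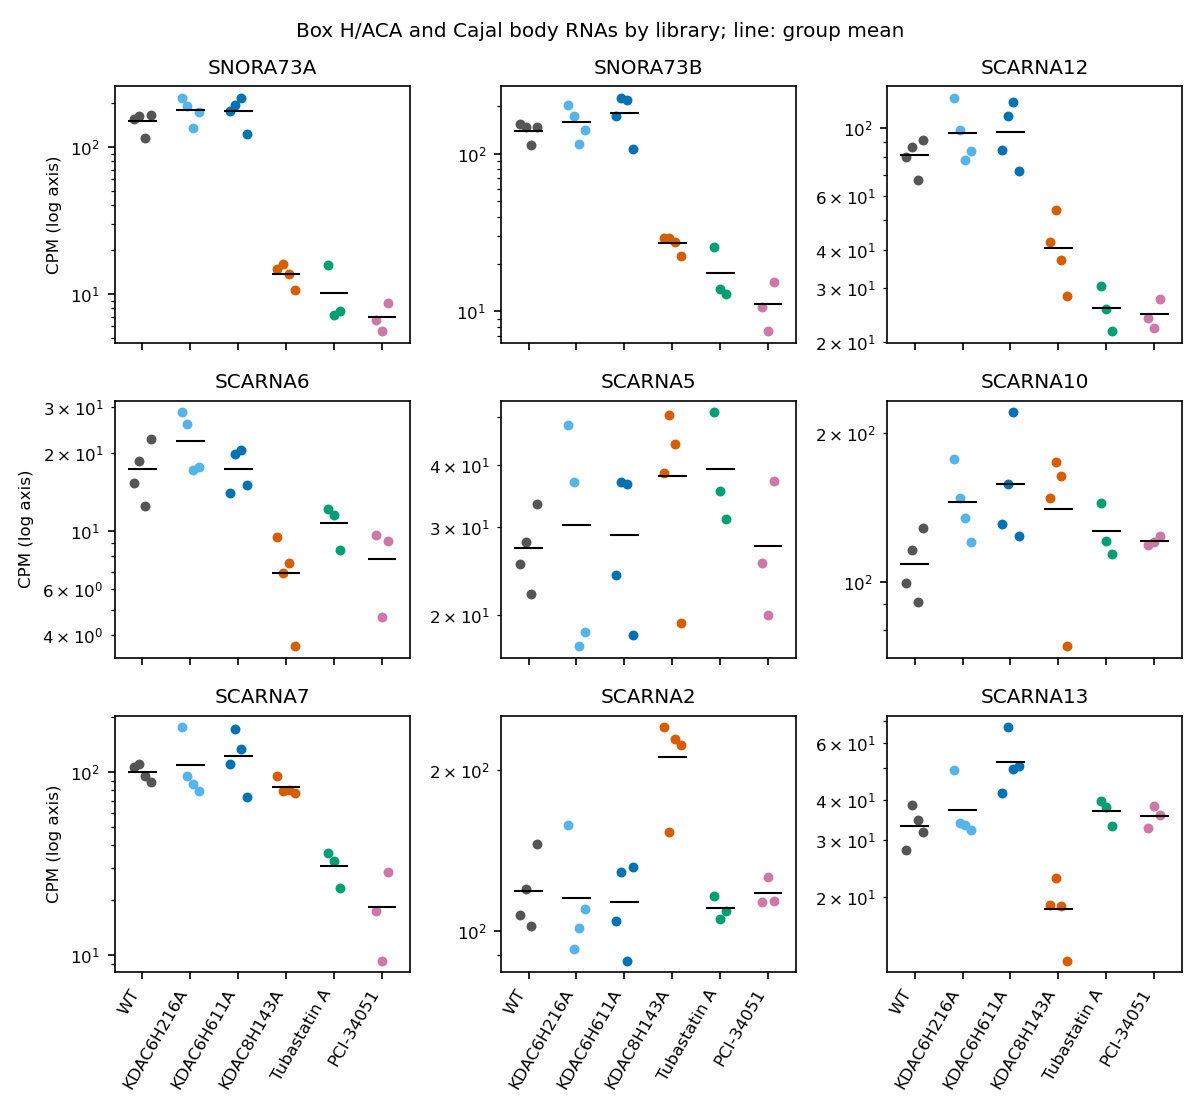
CPM (log axis) of 9 H/ACA and Cajal body RNAs in each library; points are libraries, lines group means, and the y range differs between panels. SNORA73A and SNORA73B were lower in all KDAC8H143A, Tubastatin A and PCI-34051 libraries than in any WT library, while SCARNA5 overlapped WT in all 5 other groups.

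The other SNORA genes were close to the limit of counting. SNORA74A is the U19 RNA, hosted by MATR3 and SNHG4 on chromosome 5 with the gene SIL1 on the opposite strand. It had 5 to 20 counts per WT library (0.852 to 2.72 CPM), 26 to 42 in KDAC8H143A (1.91 to 2.96 CPM), 7 to 13 with Tubastatin A (0.246 to 0.448 CPM) and 6 to 13 with PCI-34051 (0.238 to 0.481 CPM). Treated libraries were below all WT libraries in CPM, but SNORA74A did not pass the filter there and was not tested, while with no filter its difference was -2.36 with Tubastatin A and -2.22 with PCI-34051, both called. In KDAC8H143A it differed by 0.55 ± 0.37 (adjusted p = 0.1933). SNORA23, a guide for ribosomal RNA, had 4 to 12 counts in WT and 15 to 109 in KDAC8H143A, where it was at 3.45, 5.35, 2.47 and 1.24 CPM against 0.769, 1.45, 0.974 and 1.36 in WT. That difference of 1.42 ± 0.44 missed the threshold (adjusted p = 0.01208) and 1 KDAC8H143A library lay within the WT range. It was called higher by DESeq2 (1.37, adjusted p = 0.008347), on total counts (1.72), on short-gene scaling (1.54), with no filter (1.45), with the GC correction (1.58) and without KDAC8H143A replicate 4 (1.63). No call was made on upper quartile or protein-coding scaling, with all groups in 1 fit, after thinning or with the replicate block alone. Leaving out any other single library gave no call either. SNORA53 was at 0.365 to 1.36 CPM in WT and 1.44 to 2.82 CPM with Tubastatin A, a difference of 0.70 ± 0.37 that was not called.

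Of the composite RNAs, SCARNA12 and SCARNA6 were lower in the same 3 groups and SCARNA10 and SCARNA5 were not called in any comparison. SCARNA12 (also called U89) was at 80.3, 86.2, 67.3 and 90.9 CPM in WT and at 42.4, 54.0, 37.0 and 28.2 CPM in KDAC8H143A (-1.04 ± 0.17, adjusted p = 0.0002404). It was at 30.4, 25.6 and 21.7 CPM with Tubastatin A (-1.93 ± 0.10, adjusted p = 4.121e-12) and at 23.9, 22.2 and 27.6 CPM with PCI-34051 (-1.97 ± 0.10, adjusted p = 2.481e-11). No library of these groups reached the lowest WT value, and the 3 calls held under each alternative.

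SCARNA6 was at 15.4, 18.6, 12.5 and 22.6 CPM in WT. In KDAC8H143A it was at 9.51, 6.92, 7.54 and 3.63 CPM, a difference of -1.36 ± 0.26 (adjusted p = 0.0006947). Tubastatin A gave 12.2, 11.5 and 8.46 CPM (-0.97 ± 0.16, adjusted p = 2.099e-05) and PCI-34051 9.67, 4.70 and 9.14 CPM (-1.40 ± 0.22, adjusted p = 2.764e-05). The groups did not overlap WT, but both treatment calls were lost, at -0.07 and -0.23, when libraries were scaled on other genes under 300 bases. The SCARNA6 call with Tubastatin A was also lost with all groups in 1 fit and with a log2 fold change of at least 1. Its neighbour SCARNA5 was at 25.4, 28.1, 22.04 and 33.4 CPM in WT and at 38.5, 50.5, 44.1 and 19.2 CPM in KDAC8H143A, where 3 libraries lay above WT and replicate 4 below it (0.46 ± 0.25, adjusted p = 0.117). Without KDAC8H143A replicate 4 the difference was 0.63 and called, but leaving out any other single library gave no call. The ratio of SCARNA6 to SCARNA5 counts, which does not depend on library scaling, was 0.569 to 0.678 in WT, 0.137 to 0.247 in KDAC8H143A, 0.239 to 0.325 under Tubastatin A and 0.235 to 0.381 under PCI-34051.

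SCARNA10 (U85), from an intron of NCAPD2, was not called in any comparison. It was at 99.5, 116, 91.0 and 129 CPM in WT, with differences of 0.33 ± 0.22 in KDAC8H143A, -0.07 ± 0.09 under Tubastatin A and -0.10 ± 0.09 under PCI-34051. The 95% interval ran from -0.25 to 0.11 for Tubastatin A and from -0.27 to 0.07 for PCI-34051. Those signs turned when libraries were scaled on the total count (0.28 and 0.29) or on other genes under 300 bases (0.84 and 1.09), and both were then called. The medians of all genes were higher still, at 0.35 and 0.38 on the total count and 0.90 and 1.17 on other short genes. In KDAC8H143A replicate 4 stood below the rest at 74.1 CPM against 148, 175 and 164, and the difference was 0.50 and called without it. Leaving out any other single library gave no call for SCARNA10. The nested identifier of SCARNA10 (248 bases) moved apart from the leading one: it had 66.6 to 109.4 expected counts in WT libraries and 0 in all 4 KDAC8H143A libraries, where the leading identifier had 898 to 3564. In WT libraries the leading identifier had 451 to 858. With Tubastatin A the nested one had 45.9 to 89.2 and the leading one 3181 to 4106. With PCI-34051 they had 14.2 to 65.5 and 2921 to 3554.

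The box C/D Cajal body RNAs differed from each other. SCARNA7 (U90), from an intron of KPNA4, was at 107, 111, 95.2 and 88.6 CPM in WT. With Tubastatin A it was at 36.4, 32.6 and 23.3 CPM, a difference of -1.98 ± 0.11 (adjusted p = 5.591e-12), and with PCI-34051 at 17.4, 9.34 and 28.6 CPM, a difference of -2.69 ± 0.23 (adjusted p = 1.602e-08). In KDAC8H143A it was at 94.9, 78.7, 80.2 and 77.0 CPM, a difference of -0.31 ± 0.11 that was not called (adjusted p = 0.02597). It was called lower by DESeq2 (-0.35, adjusted p = 0.006707) and called higher, at 0.56, with a correction for GC content. The treatment groups lay below WT and KDAC8H143A overlapped it.

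SCARNA2 is transcribed from its own gene on chromosome 1 and guides modification of the U2 spliceosomal RNA. It was the 1 member called higher in KDAC8H143A, at 241, 153, 229 and 223 CPM against 107, 120, 102 and 145 in WT (0.80 ± 0.16, adjusted p = 0.0008623), with no overlap. This direction depended on the processing: with the GC correction the difference was -0.48 and called, and SCARNA2 is 65.5% GC. With Tubastatin A it was at 116, 105 and 109 CPM and called lower by the fit (-0.39 ± 0.08, adjusted p = 0.0004238), although its libraries overlapped WT. That call was lost on total counts and with all groups in 1 fit. Scaled on other short genes, SCARNA2 was at 0.53 with Tubastatin A, where the median of all genes was 0.90. With PCI-34051 it was at 113, 126 and 114 CPM (-0.26 ± 0.09, adjusted p = 0.01725). SCARNA9, from an intron of CEP295, was at 1.63 to 3.53 CPM in WT and was not called in any comparison, with -1.04 ± 0.37 in KDAC8H143A and 0.52 ± 0.23 with Tubastatin A.

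SCARNA13 (U93) was called higher in KDAC6H611A and lower in KDAC8H143A. It was at 27.9, 38.3, 34.6 and 31.7 CPM in WT, 42.0, 66.9, 49.7 and 50.7 CPM in KDAC6H611A and 18.9, 22.8, 18.8 and 12.7 CPM in KDAC8H143A. The difference was 0.67 ± 0.16 in KDAC6H611A (adjusted p = 0.008847) and -0.88 ± 0.16 in KDAC8H143A (adjusted p = 0.0004279), with no overlap with WT in either. The KDAC8H143A call was lost on total counts (-0.58, adjusted p = 0.01471). The KDAC6H611A call sat at the threshold and was lost without any 1 of the WT libraries, without KDAC6H611A replicate 4, and under 6 other alternatives, with values from 0.36 to 0.76. Treated libraries overlapped WT (-0.14 ± 0.08 and -0.16 ± 0.08, not called). On the scale of other short genes they were called higher (0.77 and 1.03), but below the medians of all genes on that scale (0.90 and 1.17). SCARNA13 lies within exons of SNHG10 and opposite GLRX5, and the strand setting of the counting is not stated, so reads of these genes may be included. The 4325-base transcript named SCARNA15 was called lower in KDAC8H143A (-1.40 ± 0.28) and with both treatments (-0.86 ± 0.15 and -0.66 ± 0.14). The KDAC8H143A call was lost with the GC correction (-0.63), both treatment calls with all groups in 1 fit (-0.75 and -0.57) and on short-gene scaling (0.04 and 0.51), and the PCI-34051 call also on total counts (-0.27) and after thinning to the smallest library (-0.51).

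**Figure D3:**
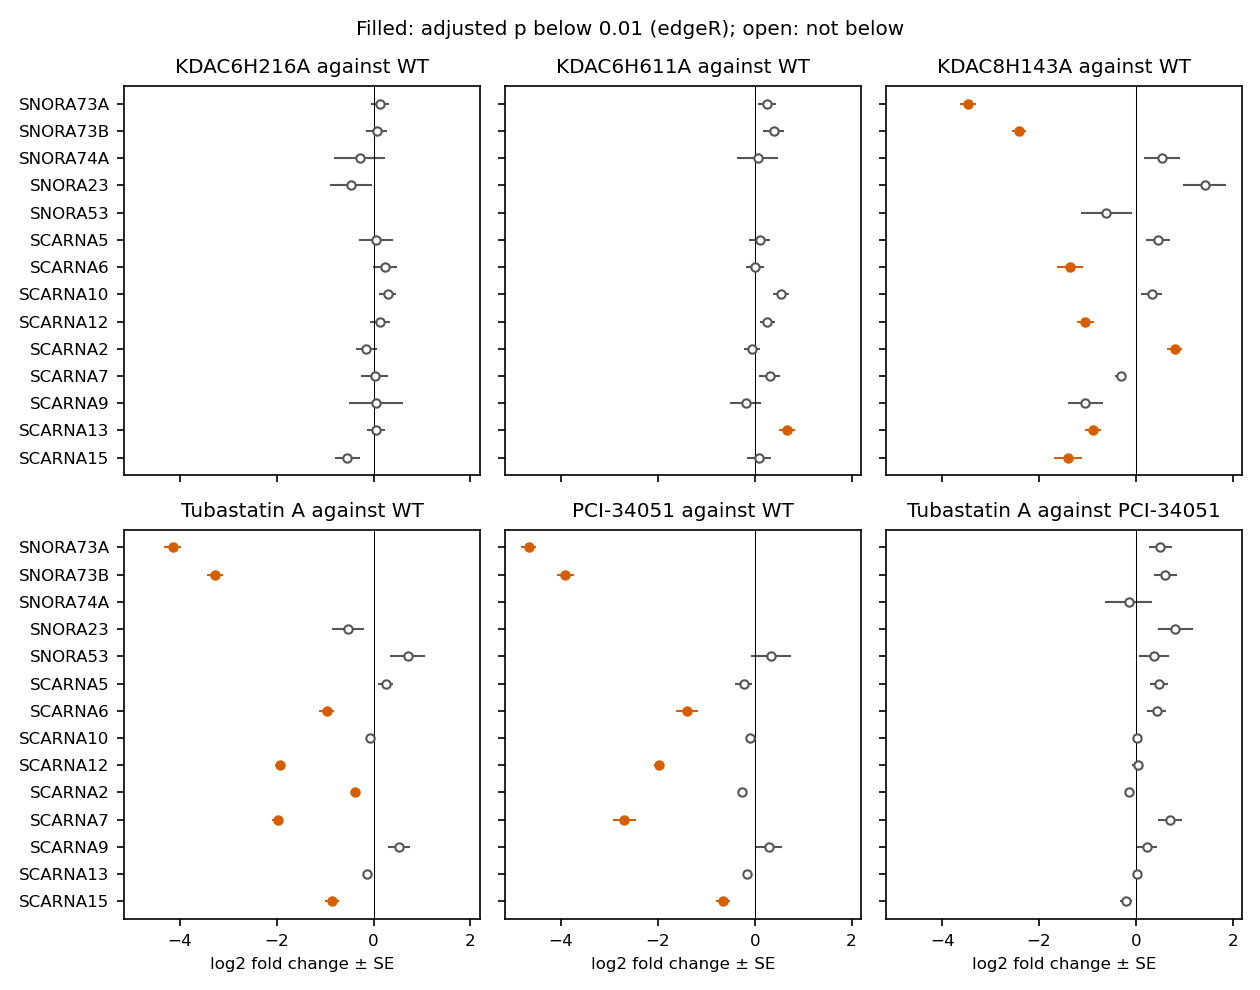
Log2 fold change ± SE of the 14 tested members in each of 6 comparisons; filled points passed an adjusted p of 0.01 in edgeR, and a missing point was not tested. SNORA73A and SNORA73B lie farthest to the left in KDAC8H143A and both treatments, and no point is filled for KDAC6H216A or for the treatments against each other.

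By comparison, calls among members were set against all genes. KDAC8H143A had 14 members tested, with 1 higher (31.6% of all 16099 genes were called higher) and 6 lower (26.9% of all genes), and a median log2 fold change of -0.74 against 0.076 over all genes. Tubastatin A had 13 tested, with 0 higher (29.3% of all 15244 genes) and 7 lower (28.6%), and a median of -0.53 against -0.003. PCI-34051 had 12 tested, with 0 higher (25.5% of all 15344 genes) and 6 lower (25.6%), and a median of -0.46 against -0.007. All 7 calls in KDAC8H143A and all 6 with PCI-34051 came without overlap with WT, and 6 of the 7 with Tubastatin A. The matching share of all called genes is not given here, so these counts do not set the members apart. For KDAC8H143A, DESeq2 called 9 members, against 4954 higher and 4703 lower of all 16099 genes. The Tubastatin A comparison had 7 members called by DESeq2, against 4180 higher and 4215 lower of 15244 genes. For PCI-34051 it called 6 members, against 3670 higher and 3712 lower of 15344 genes. These comparisons share the WT libraries and are not independent of each other.

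In the KDAC6 lines 1 call was made among these RNAs. In KDAC6H611A 12 members were tested, with 1 higher (6.08% of all 14723 genes) and 0 lower (6.25% of all genes). In KDAC6H216A 13 were tested, with 0 higher (0.214% of all 14498 genes) and 0 lower (0.621%), by edgeR and by DESeq2, and 0 were at an unadjusted p under 0.05. Without KDAC6H216A replicate 1, the library with low mitochondrial rRNA, 3 members were called lower: SCARNA15 (-0.83), SCARNA2 (-0.42) and SCARNA7 (-0.40). That library held the group's highest value of SCARNA7 (176 CPM against 78.8 to 95.6), SCARNA2 (158 against 92.3 to 110 CPM) and SCARNA13 (49.5 against 32.3 to 33.9 CPM).

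Tubastatin A and PCI-34051 were given at different doses, for the same time. Of 14 members tested against each other, 0 were higher with Tubastatin A (3.48% of all 18407 genes) and 0 lower (2.22%) by edgeR and by DESeq2, and 6 were at an unadjusted p under 0.05. The largest of those was SNORA23 with 0.82 ± 0.37, and SNORA73A differed by 0.51 (95% interval 0.04 to 0.99) and SNORA73B by 0.61 (0.14 to 1.09). The interval for SCARNA10 was narrower, from -0.1 to 0.16. Without PCI-34051 replicate 3, SCARNA7 (1.20) and SCARNA5 (0.77) were called higher with Tubastatin A, and leaving out any other single library gave no call.

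Other short genes were low in the treated cells too. Among other genes with an annotated length under 300 bases, 36 of 53 were called lower with Tubastatin A and 36 of 53 with PCI-34051, with medians of -1.52 and -1.62, against 3 called higher in each. Those 53 included 12 spliceosomal (snRNA) genes, all 12 lower with Tubastatin A (median -2.80). In KDAC8H143A 19 of 56 were lower and 19 higher, with a median of -0.15. Other genes of at least 300 but under 1000 bases had medians of -0.54 with Tubastatin A, -0.46 with PCI-34051 and 0.85 in KDAC8H143A. The tested members had medians of -0.53 with Tubastatin A and -0.46 with PCI-34051, but they are not matched in length to the other short genes. They include RNAs of 330 bases or more and the 4325-base transcript named SCARNA15. Their medians were close to those of the other genes of at least 300 but under 1000 bases. Of the other genes under 300 bases, 4 with Tubastatin A, 3 with PCI-34051 and 2 in KDAC8H143A were as low as or lower than SNORA73A, and 24, 22 and 17 were as low as or lower than SCARNA12. On the scale of these other short genes, which put the median of all genes at 0.90 with Tubastatin A and 1.17 with PCI-34051, SNORA73A (-3.25 and -3.50), SNORA73B (-2.39 and -2.76), SCARNA7 (-1.09 and -1.58) and SCARNA12 (-1.02 and -0.80) were still called lower, and 6 members were called higher in both treatments: SCARNA2, SCARNA5, SCARNA9, SCARNA10, SCARNA13 and SNORA53. Most genes were called higher on that scale, 12003 of 15244 with Tubastatin A and 12897 of 15344 with PCI-34051. The part that recovery of short RNA in the libraries had in these differences was not tested.

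**Figure D4:**
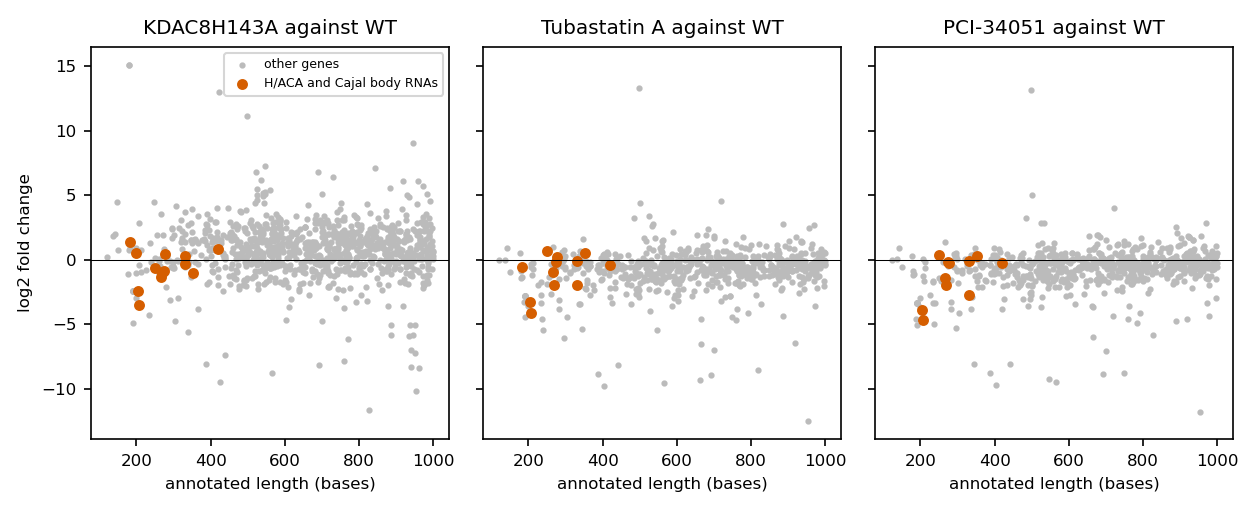
Log2 fold change of tested genes under 1000 bases against annotated length, in KDAC8H143A, Tubastatin A and PCI-34051 against WT; orange points are H/ACA and Cajal body RNAs and grey points other genes. In the treated cells many grey points under 300 bases lie below 0, and the U17 copies near 200 bases lie below most of these points.

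TERC, the telomerase RNA, ends in a box H/ACA domain and visits Cajal bodies, but its symbol keeps it out of the rule. It was at 7.11, 10.3, 6.57 and 10.1 CPM in WT and at 43.7, 20.3, 32.7 and 39.7 CPM in KDAC8H143A (3.90-fold higher, adjusted p = 3.208e-05), opposite in direction to the U17 copies. It was at 3.69 to 4.82 CPM with Tubastatin A (-1.30 ± 0.17, adjusted p = 1.969e-06) and 3.96 to 5.47 CPM with PCI-34051 (-1.04 ± 0.18, adjusted p = 8.765e-05). The falls with the treatments were not particular to TERC. It belonged to a list of structural noncoding RNAs of which 7 were tested, and each treatment had 6 lower and 0 higher (medians -0.71 and -0.89). Over all genes 28.6% were lower and 29.3% higher with Tubastatin A, and 25.6% and 25.5% with PCI-34051. In KDAC8H143A 1 of the 7 was higher (31.6% of all genes) and 1 lower (26.9%). TERT, the catalytic subunit of telomerase, rose by 2.72 ± 0.27 in KDAC8H143A and fell in KDAC6H611A (-1.42 ± 0.24), with Tubastatin A (-1.07 ± 0.12) and with PCI-34051 (-0.93 ± 0.13). WRAP53, which brings H/ACA RNAs to Cajal bodies, rose in KDAC8H143A (0.80 ± 0.15) and fell with the inhibitors (-0.65 ± 0.10 for Tubastatin A and -0.80 ± 0.10 for PCI-34051).

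Of the 4 H/ACA core protein genes, 1 rose and 2 fell in each of these 3 comparisons, and 0 were called in the KDAC6 lines. GAR1 rose throughout, from 8.70 CPM in WT to 23.3 in KDAC8H143A (1.39 ± 0.17), 24.0 under Tubastatin A (1.19 ± 0.12) and 20.7 under PCI-34051 (1.01 ± 0.13). NOP10, the smallest core protein, fell from 44.4 CPM in WT to 10.3 in KDAC8H143A (-2.13 ± 0.20), 37.1 under Tubastatin A (-0.56 ± 0.08, overlapping WT) and 28.2 under PCI-34051 (-0.92 ± 0.08). NHP2 fell in KDAC8H143A (-0.89 ± 0.14), and DKC1, the pseudouridine synthase, was called lower with Tubastatin A (-0.36 ± 0.05) and PCI-34051 (-0.39 ± 0.06), although its libraries overlapped WT. GAR1 and NOP10 therefore moved in opposite directions in the same libraries.

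Among the 6 assembly factors, 2 fell in KDAC8H143A, RPAP3 (-1.15 ± 0.12) and RUVBL1 (-0.43 ± 0.09). With Tubastatin A 1 was called higher and 3 lower, and with PCI-34051 1 higher and 4 lower, and all 7 of these lower calls overlapped WT in CPM (RUVBL2 was at 204.2 CPM with Tubastatin A against 200.6 in WT). The rise in both was NAF1, which holds the place of GAR1 in the nascent particle (0.44 ± 0.09 and 0.42 ± 0.09). In KDAC6H611A the chaperone gene SHQ1 rose (0.45 ± 0.09). Of 11 genes of 3′ end processing and export, 6 fell and 0 rose in KDAC8H143A, with PHAX, an export adaptor, lowest (-1.31 ± 0.10), while each treatment had 6 lower and 1 higher, the exosome helicase MTREX (0.21 ± 0.05 and 0.16 ± 0.05). EXOSC10, a nuclear exosome nuclease, fell by 0.63 with Tubastatin A and by 0.53 with PCI-34051.

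Among 10 Cajal body and telomerase genes, 2 rose and 3 fell in KDAC8H143A, 1 rose and 5 fell under Tubastatin A, 1 rose and 6 fell under PCI-34051 and 1 fell in KDAC6H611A. COIL, the coilin scaffold of the Cajal body, fell in KDAC8H143A (-0.51 ± 0.12) and was called lower with PCI-34051 (-0.36 ± 0.10), overlapping WT. The 4 box C/D core protein genes, listed for contrast, had 1 higher (FBL, 0.74 ± 0.13) and 1 lower in KDAC8H143A, 0 higher and 3 lower with each treatment, and 2 lower in KDAC6H611A. Over these 35 genes together, 4 rose and 14 fell in KDAC8H143A, 4 and 19 under Tubastatin A, 4 and 21 under PCI-34051, 1 and 3 in KDAC6H611A and 0 and 0 in KDAC6H216A, where DESeq2 also called 0 and 1 was called on the total count. Over all genes tested, 31.6% were higher and 26.9% lower in KDAC8H143A, 29.3% and 28.6% under Tubastatin A and 25.5% and 25.6% under PCI-34051. Of the lower calls among the 35, 11 of 19 under Tubastatin A and 10 of 21 under PCI-34051 overlapped WT in CPM, against 0 of 14 in KDAC8H143A and 0 of 3 in KDAC6H611A. For the treated cells the CPM ratios lie above the fits by medians of 0.28 and 0.25 among the members, so small falls can overlap there. The matching share of all called genes is not given here. When all 6 groups shared 1 fit, 7 of the 35 genes were called with Tubastatin A and 10 with PCI-34051. Between the treatments only NOP10 was called (0.36 ± 0.07, higher with Tubastatin A).

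The host genes of the called small RNAs changed by less than the RNAs themselves. RCC1 differed by -0.10 ± 0.09 in KDAC8H143A, where it was not called, then by -0.66 ± 0.05 with Tubastatin A and by -0.73 ± 0.05 with PCI-34051, against -3.47, -4.15 and -4.67 for SNORA73A. SNHG3, which spans both U17 copies, differed by -0.39 ± 0.22 (not called), -0.53 ± 0.06 and -0.43 ± 0.06. PHB2, the prohibitin gene that hosts SCARNA12, fell in all 3 (-0.57 ± 0.12, -0.33 ± 0.05 and -0.47 ± 0.06). KPNA4, an importin and the host of SCARNA7, went the other way from it with both treatments (0.22 ± 0.05 and 0.20 ± 0.06). ATG16L1, an autophagy gene and host of SCARNA5 and SCARNA6, differed by 0.34 ± 0.12 (not called), -0.42 ± 0.06 and -0.36 ± 0.07. IPO7, the host of SNORA23, fell in KDAC8H143A (-1.03 ± 0.12) while SNORA23 was at 1.42. These counts are of host exons, and SCARNA12 and SNORA73A also lie within exons of retained-intron transcripts, so some reads may be assigned to either gene.

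**Figure D5:**
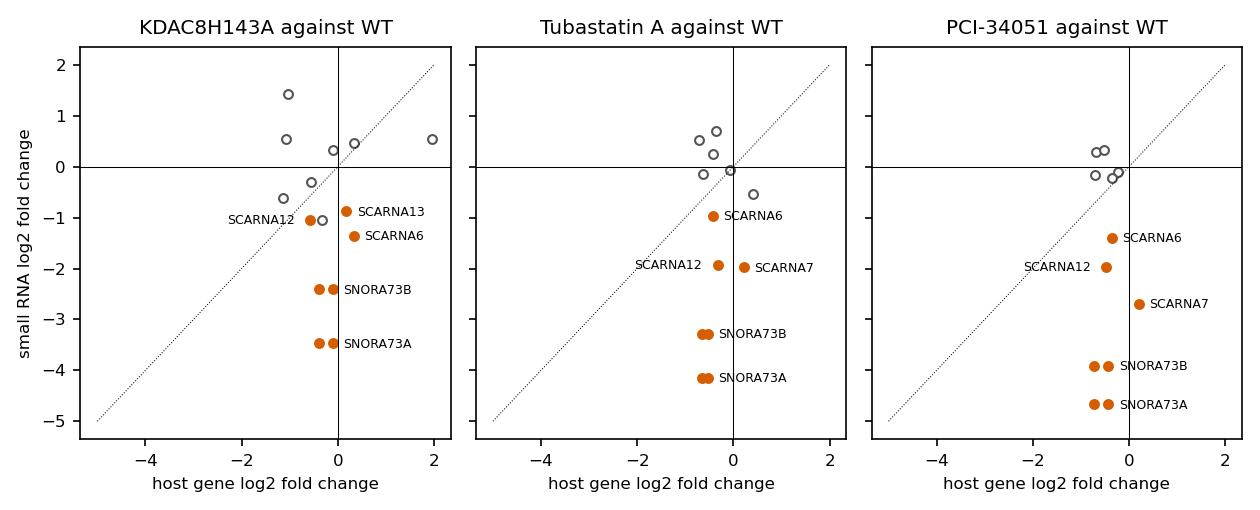
Log2 fold change of each tested small RNA against that of its host gene in KDAC8H143A, Tubastatin A and PCI-34051 against WT; filled points are small RNAs that were called, named in the plot, the dotted line marks equal change, and the U17 copies appear once for RCC1 and once for SNHG3. Filled points lie below the dotted line in all 3 panels.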

How the data were processed

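Total RNA of HT1080 cells, depleted of rRNA, was sequenced in read pairs in 22 libraries. The deposited table holds expected counts per gene, which the authors made with Trimmomatic 0.39, Bowtie2 2.4.5 and RSEM 1.3.3 per the submitters' processing notes. The strand setting and annotation release are not given in the sources used here. Total counts ran from 5248953 to 29862665 per library, and 0 value columns were left out. Members and gene lists were chosen with earlier results of these data known. Identifiers with the same member symbol were summed and the expected counts rounded. Each pair of groups was fitted with edgeR 4.0.16 (R 4.3.3; filterByExpr, TMM, quasi-likelihood test, Benjamini-Hochberg adjustment over all genes tested, threshold 0.01), and SE is the log2 fold change divided by the square root of F. DESeq2 1.42.0, other scalings, filters and thresholds, leaving out each library, thinning, a GC correction and a replicate block were alternatives; scaling on other genes under 300 bases was added after the data were seen. The scripts were tested on simulated data.

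Genes named were the 10 members highest per length, a set of long or well-known members, up to 4 called rises and falls per comparison without overlap and at least 1 CPM, the listed pathway genes and host genes. SNORA23 and SNORA53 were named after their values were seen. Lengths, positions and sequences came from GRCh38 with GENCODE 44, which held 474 of the 480 identifiers. Replicates were not duplicates of each other (lowest chi-square per gene 2.85).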

Additional observations from a re-analysis of the deposited data

Results flagged for a closer look

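Among 60 checks of a single library against its group of 4, 3 values stood apart by the 95% critical value of Dixon's ratio, and chance flags about 1 in 20 such groups. SCARNA13 was at 49.47 CPM in KDAC6H216A replicate 1 against 32.3 to 33.92 in the others. SCARNA9 was at 6.685 CPM in the same library against 1.532 to 1.828. That library also had 0.195% mitochondrial rRNA against 13.2 to 15.1% in the other 3, and the part of this difference in those levels was not tested. SNORA73B was at 113.7 CPM in WT replicate 3 against 147.4 to 153.9 in the other WT libraries.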

How the results depend on the processing

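Calls of SNORA73A, SNORA73B and SCARNA12 in KDAC8H143A and both treatments, and of SCARNA7 in both treatments, held under each alternative run. Counts of called members moved as follows. In KDAC6H611A (1) they were 2 at an adjusted p below 0.05 and with no filter, and 0 with a log2 fold change of at least 1, total counts, protein-coding scaling, short-gene scaling, 10 counts in every library or GC correction. With Tubastatin A (7) they were 4 with a log2 fold change of at least 1 and 11 with no filter, with PCI-34051 (6) 10 under short-gene scaling, and between the treatments (0) 5 with no filter. Short-gene scaling called 12897 of all 15344 genes higher with PCI-34051. Over all genes, KDAC6H611A had 1701 higher and 1685 lower of 14723 at an adjusted p below 0.05. With no filter it had 1251 and 1219 of 31962. Tubastatin A had 1127 and 1141 of 15244 with a log2 fold change of at least 1, and 5677 and 4121 of 32710 with no filter. Between the treatments 1184 and 707 of 33081 were called with no filter. Called pathway genes were 1 in KDAC6H216A (0) on total counts. In KDAC6H611A (4) they were 8 at an adjusted p below 0.05, 1 with a log2 fold change of at least 1, on total counts or short-gene scaling, and 2 with no filter or the replicate block. The log2 minimum left 5 in KDAC8H143A (18), 2 under Tubastatin A (23) and 1 under PCI-34051 (25), and the fit of all groups left 7 and 10 in the last 2. Between treatments (1) they were 3 at an adjusted p below 0.05, 2 with DESeq2, total counts, no filter or GC correction, and 0 with the log2 minimum, short-gene scaling, all groups or thinning. The causes were not tested.

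Summed shares without mitochondrial rRNA in the total were 0.0964% in WT and 0.117% in KDAC6H611A. Over protein-coding counts they were 0.120% in WT, 0.154% in KDAC6H611A, 0.0794% in KDAC8H143A, 0.0470% under Tubastatin A and 0.0449% with PCI-34051, and without SCARNA10 0.0648, 0.0751, 0.0508, 0.0293 and 0.0274%. SCARNA2 in KDAC8H143A reversed to -0.48 with the GC correction, with or without the replicate block. Short-gene scaling reversed SCARNA15 (0.04) and SCARNA2 (0.53) with Tubastatin A and SCARNA15 (0.51) with PCI-34051. Leaving out 1 library gave 0 to 3 called members in KDAC6H216A, 0 to 1 in KDAC6H611A, 7 to 10 in KDAC8H143A, 8 with Tubastatin A, 7 to 9 with PCI-34051 and 0 to 2 between treatments, and 0 to 4, 2 to 6, 16 to 24, 22 to 25, 22 to 25 and 0 to 2 pathway genes. The shares were then 0.0729 to 0.0792% in WT, 0.0729 to 0.0996% in KDAC6H216A, 0.0873 to 0.0927% in KDAC6H611A, 0.0637 to 0.0725% in KDAC8H143A, 0.0390 to 0.0439% under Tubastatin A and 0.0382 to 0.0410% with PCI-34051.

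Replicate numbers did not pair the libraries (correlations of same-numbered libraries from -0.191 to 0.333). With the replicate block 0, 1, 7, 8, 6 and 0 members and 0, 2, 17, 23, 23 and 1 pathway genes were called, in the order above. Counts of 3 or fewer per library limit what can be said of the short members.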

Other observations

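The ratio of SNORA73A to SNORA73B counts within a library does not depend on scaling, and it differed between groups. It was 1.06 ± 0.0601 in WT (range 1.0 to 1.12), 1.13 ± 0.0683 in KDAC6H216A and 0.990 ± 0.116 in KDAC6H611A (SD, n = 4 each). It was 0.504 ± 0.0309 in KDAC8H143A (n = 4), 0.575 ± 0.0531 under Tubastatin A and 0.646 ± 0.0915 with PCI-34051 (n = 3 each), and the highest of these 10 libraries, at 0.744, lay below the lowest of the other 12. These values are a description without a test, and reads shared by the near-identical copies limit them.

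The ratio of SNORA73A to SCARNA10, the member with the most counts, was 1.38 ± 0.128 in WT, 0.104 ± 0.0264 in KDAC8H143A, 0.0786 ± 0.0269 under Tubastatin A and 0.0576 ± 0.0121 under PCI-34051. SCARNA16, an H/ACA RNA of the Cajal body, had 1 to 9 counts per library in WT and the mutant lines and 0 to 3 in the treated ones, which had larger totals.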
